A study of Mus musculus with 2 samples.

Results

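Metallothioneins, zinc transporters and their metal sensor were described in liver RNA of mice with acetaminophen (APAP) induced injury, with and without the cathepsin C inhibitor AZD7986. The genes are the rows named Mt1, Mt2, Mtf1, Slc39a14, Slc39a8, Slc39a4, Slc30a1 and Slc30a10, 8 of the 24377 genes in the deposited table. All 8 were found, and the lowest of their summed counts was 133. Male C57BL/6J mice (C57BL/6 in the labels), 9 to 11 weeks old and fasted for 10 h, received 300 mg/kg APAP intraperitoneally, and liver RNA was taken 30 h later. In the AZD7986 group, 4 oral doses of 5 mg/kg of the inhibitor were given, at −12, 0, 12 and 24 h relative to APAP, and the vehicle group received 4 administrations of the solvent. Mice of both groups therefore had injured livers, and mice without APAP were not analysed here. In these mice the study reported lower serum ALT, a marker of liver damage, and less necrosis with AZD7986. The pools thus differ in the degree of injury as well as in the inhibitor, and these cannot be told apart here. RNA of 8 mice per group was mixed into 1 pool and gave 1 library, so the variation between mice is unknown, no test of the treatment exists, and each interval below covers counting error alone.

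Metallothioneins are small proteins of the cytosol that bind zinc and copper through their many cysteines, and in hepatocytes they form the main exchangeable store of zinc. Their genes are switched on by zinc through Mtf1, a zinc finger factor that binds metal response elements, and also by glucocorticoids, interleukin 6 and oxidative stress. Zinc enters the cytosol through transporters of the Slc39a (ZIP) family and leaves it, into vesicles or out of the cell, through those of the Slc30a (ZnT) family. Slc39a14 and Slc39a8 also carry manganese and iron, and Slc30a10 exports manganese into bile. Metallothioneins and zinc are known to protect mouse liver from APAP.

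Mt1 and Mt2 are neighbours on chromosome 8 (GRCm38, GENCODE M21), separated by 5513 bases and read in the same direction. Mt2 spans chr8:94172664-94173568 and Mt1 spans chr8:94179082-94180327. Their coding sequences are shown because 3′ tags of close relatives can be confused and because the cysteine codons are what makes these proteins metal stores. Each is given without its stop codon, joined from 3 coding exons, with the codons for cysteine (TGT and TGC) in capitals.
Mt1: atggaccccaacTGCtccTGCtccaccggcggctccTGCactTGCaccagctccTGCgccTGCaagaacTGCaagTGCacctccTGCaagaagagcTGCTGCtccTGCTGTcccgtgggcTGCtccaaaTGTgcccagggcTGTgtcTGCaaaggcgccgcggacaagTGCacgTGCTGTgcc
Mt2: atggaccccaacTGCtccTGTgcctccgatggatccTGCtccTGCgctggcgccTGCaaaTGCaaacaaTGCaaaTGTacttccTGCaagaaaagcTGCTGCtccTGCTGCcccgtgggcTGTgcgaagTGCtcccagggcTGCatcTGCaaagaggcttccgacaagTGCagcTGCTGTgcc
Both hold 61 codons, 20 of them for cysteine (32.8%), and the 20 cysteine codons stand at the same positions in both. The coding sequences are identical at 145 of 183 bases (79.2%). Over the main transcripts of both genes the longest stretch shared exactly was 20 bases, and after the coding sequence it was 10 bases. Only 137 bases of Mt1 and 144 of Mt2 follow the coding sequence. The positions of the 3′ tags were not examined, and tags may reach into the coding sequence.

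The stretches before the gene starts are shown for the metallothioneins and for both exporters, because Mtf1 acts through short elements there. The sequences are from RefSeq (GRCm38.p6), each the 250 bases before the start annotated there, on the strand of the gene. RefSeq starts differ in part from the GENCODE starts given with the genes. The Mt2 window ends before the GENCODE start of Mt2, while those of Mt1 and Slc30a1 run past theirs. Capitals mark the core of the metal response element, TGCACNC or TGCGCNC, searched on both strands.
Mt1, chr8:94178839-94179088, plus strand: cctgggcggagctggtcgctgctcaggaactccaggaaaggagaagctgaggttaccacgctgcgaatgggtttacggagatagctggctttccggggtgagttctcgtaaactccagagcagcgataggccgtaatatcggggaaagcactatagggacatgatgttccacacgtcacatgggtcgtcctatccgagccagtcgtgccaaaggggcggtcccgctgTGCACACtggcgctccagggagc
Mt2, chr8:94172368-94172617, plus strand: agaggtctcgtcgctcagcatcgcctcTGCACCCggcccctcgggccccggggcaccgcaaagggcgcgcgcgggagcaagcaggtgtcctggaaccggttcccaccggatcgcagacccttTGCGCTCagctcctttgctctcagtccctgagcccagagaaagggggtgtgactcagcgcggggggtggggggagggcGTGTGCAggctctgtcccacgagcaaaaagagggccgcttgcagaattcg
Slc30a1, chr1:191906531-191906780, plus strand: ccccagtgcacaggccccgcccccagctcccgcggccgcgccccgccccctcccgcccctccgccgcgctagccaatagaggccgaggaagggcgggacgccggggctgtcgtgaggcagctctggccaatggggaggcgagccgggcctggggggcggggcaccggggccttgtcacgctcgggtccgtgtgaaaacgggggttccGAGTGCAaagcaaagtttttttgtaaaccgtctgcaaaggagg
Slc30a10, chr1:185454598-185454847, plus strand: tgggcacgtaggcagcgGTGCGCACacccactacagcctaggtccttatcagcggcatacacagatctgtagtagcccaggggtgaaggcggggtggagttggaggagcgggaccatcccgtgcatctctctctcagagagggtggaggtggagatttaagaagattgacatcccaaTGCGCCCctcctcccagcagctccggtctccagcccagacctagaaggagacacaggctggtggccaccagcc
Positions here are counted from the RefSeq start that ends each window. Mt2 held 3 matches, beginning 223, 128 and 50 bases before that start. Mt1 held 1, at 23 bases, and Slc30a1 held 1, at 43 bases. Slc30a10 held 3, of which those at 233 and 232 bases overlap on opposite strands. Among all 32851 windows of this length, 21.4% held at least 1 match and 1.26% at least 3. When the 50 bases after each start were added, Mt1 held 3 matches and Mt2 4, numbers reached by 1.97% and 0.517% of all windows of 300 bases. Of the 3 Mt1 transcripts in GENCODE M21, 2 start further downstream, at 94179211 and 94179241. Part of the stretch before the first of these starts, and most of that before the second, lies outside the window shown. The number of Mt1 matches therefore does not describe these 2 starts. The Mtf1 window (chr4:124802299-124802548) held 0 matches. It lies inside the GENCODE span of the gene and does not describe the stretch before that start. Slc39a8 has 2 windows and held 1 match in the second (chr3:135825407-135825656), which also lies inside its GENCODE span. A match is a string of letters and no measured binding. For 6 of the 8 genes the RefSeq table holds such a window.

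The libraries differed little in depth. The vehicle library held 7657855 counts and the AZD7986 library 6700838, after removal of duplicates by molecular identifiers, and mitochondrial transcripts took 9.17% and 7.74%. The scaling used size factors by the median of ratios (1.10 and 0.910), and each ratio sets the AZD7986 pool over the vehicle pool, with its exact 95% counting interval in brackets. A gene is called lower at a ratio of 0.5 or less, and higher at 2 or more, if its interval also excludes 1. Levels are given in CPM, the count per 1000000 counts of the library. Alb, the albumin gene that marks hepatocytes, ranked first and second in the libraries.

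Both metallothionein genes had far fewer counts in the AZD7986 pool than in the vehicle pool. Mt1 had 9243 counts in the vehicle pool, against 4489 under AZD7986. It stood at rank 97 of all genes in the first library and at rank 166 in the second. Its ratio was 0.586 [0.565, 0.607], or 41.4% lower. Mt2 had 4935 counts with vehicle and 1878 with AZD7986, at ranks 157 and 444. Its ratio was 0.459 [0.435, 0.484], or 54.1% lower, so that Mt2 is called lower while Mt1 lies above the threshold. Together the pair took 0.185% of all counts in the vehicle library and 0.0950% in the AZD7986 library. After scaling by the size factors, their summed counts gave a ratio of 0.542 [0.526, 0.558]. In bulk tissue, less RNA per cell and fewer cells of the type that makes it cannot be told apart.

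The ratios of the pair differed from each other. Mt1 made up 65.2% [64.4, 66.0] of their joint counts with vehicle and 70.5% [69.4, 71.6] with AZD7986 (Clopper-Pearson intervals, which do not overlap). There were 1.87 Mt1 counts for each Mt2 count without the inhibitor and 2.39 with it. The ratio of Mt1 was 1.28 [1.20, 1.36] times that of Mt2, a comparison within each library that needs no scaling. An antisense transcript, Gm45774, overlaps Mt2 on the other strand. It had 12 counts with vehicle and 1 with AZD7986, and as no source used here gives the strand setting of the counting, reads of the overlap cannot be assigned for certain. The brain metallothionein Mt3 had 12 counts in each pool, and Mt4, a gene of stratified epithelium, had 3 and 2, too few for a difference to be seen at this depth.

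**Figure D1:**
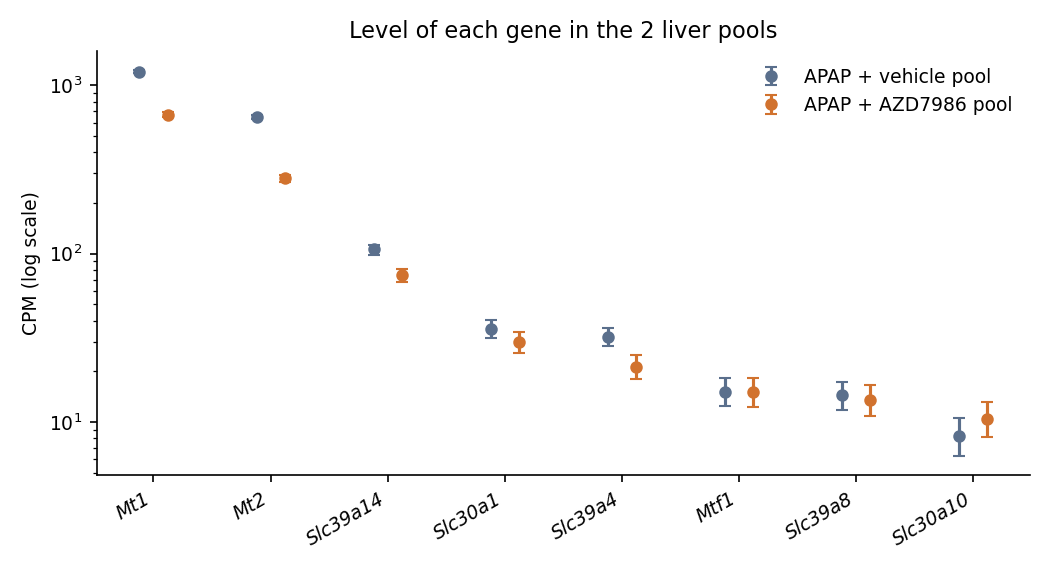
Level of each of the 8 genes in CPM (log axis) in the vehicle pool (blue) and the AZD7986 pool (orange), with exact 95% Poisson intervals that cover counting error only. Mt1 and Mt2 lie well above the transporters in both pools, and their points are separated between pools by far more than their intervals, while those of Mtf1 (15.1 CPM in both) coincide.

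Mtf1 itself, the sensor that drives both genes (chr4:124802104-124849800), did not differ detectably. It had 116 counts with vehicle and 101 with AZD7986, 15.1 CPM in each, and its ratio was 1.05 [0.797, 1.38]. The ratio of Mt1 was 0.558 [0.422, 0.738] times that of Mtf1, and the ratio of Mt2 was 0.437 [0.330, 0.580] times. These values concern transcripts of the factor and say nothing about its activity. Genes that overlap Mtf1 and the transporters had at most 12 counts in either pool.

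Of the 3 importers, Slc39a14 and Slc39a4 had intervals below 1, and the ratio of Slc39a8 was close to 1. Slc39a14, the ZIP transporter that acute inflammation induces in mouse liver (chr14:70303469-70351425), had 811 counts with vehicle and 498 with AZD7986. Its ratio was 0.741 [0.662, 0.830], which is 25.9% lower and short of the threshold. Slc39a4, the zinc uptake transporter best known from the intestine (chr15:76612383-76617384), had 246 counts with vehicle and 143 with AZD7986, a ratio of 0.702 [0.567, 0.866]. Slc39a8, a close relative of Slc39a14 that moves zinc and manganese (chr3:135825279-135888572), had 110 and 91 counts, a ratio of 0.998 [0.748, 1.33]. Slc39a14 and Slc39a4 could not be told apart in ratio (1.06 [0.831, 1.35] between them). Slc39a14 against Slc39a8 gave 0.742 [0.545, 1.01], an interval that just includes 1, so a difference between these relatives was not detectable at this depth.

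Neither exporter was called. Slc30a1, which pumps zinc out of the cell and is itself a target of Mtf1 in mouse (chr1:191906767-191913247), had 274 counts with vehicle and 199 with AZD7986. Its ratio was 0.877 [0.727, 1.06]. The ratio of Mt1 was 0.669 [0.553, 0.810] times that of Slc30a1, and for Mt2 it was 0.524 [0.432, 0.637] times, so the metallothioneins stood lower than this other Mtf1 target by more than counting error. Slc30a10, the manganese exporter (chr1:185454848-185468762), had 63 counts with vehicle and 70 with AZD7986, a ratio of 1.34 [0.940, 1.92]. This was the highest ratio among the 8 genes, though its interval includes 1. Against the manganese importer Slc39a14 the exporter had a ratio 1.81 [1.24, 2.63] times as high. Against Slc39a8, which also carries manganese, its ratio was 1.34 [0.845, 2.13] times as high, an interval that includes 1.

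The genes spanned a wide range of levels. MACE reads a tag at the 3′ end of each transcript, so levels are compared without division by transcript length. In the vehicle pool the order was Mt1 (1207 CPM), Mt2 (644 CPM), Slc39a14 (106 CPM), Slc30a1 (35.8 CPM), Slc39a4 (32.1 CPM), Mtf1 (15.1 CPM), Slc39a8 (14.4 CPM) and Slc30a10 (8.23 CPM). Poisson intervals of Slc30a1 [31.7, 40.3] and Slc39a4 [28.2, 36.4] overlapped there, as did those of Mtf1 and Slc39a8. In the AZD7986 pool the order was kept, with Slc30a1 at 29.7 CPM [25.7, 34.1] now clear of Slc39a4 at 21.3 CPM [18.0, 25.1]. At the lower end of that pool, the interval of Mtf1 overlapped those of Slc39a4, Slc39a8 and Slc30a10.

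Over all 8 genes, 1 was called lower and 0 higher, and the median log2 ratio was −0.31. Called lower were 0.956% of the 8894 genes with 100 or more counts in sum, and called higher 0.787%, with a median log2 ratio of 0.014. Counted by the interval alone, 4 of the 8 lay below 1 (Mt1, Mt2, Slc39a14 and Slc39a4), 0 lay above, and 4 included 1. Of all genes at that depth, 18.0% had an interval below 1 and 24.1% one above. Of the 28 pairs among the 8 genes, 17 differed in ratio by more than the counting interval of the pair, and 12 of these 17 involve a metallothionein. Mt1 and Mt2 have the most counts of the 8, which narrows the intervals of their pairs. Among those pairs only Mt1 against Slc39a4 included 1 (0.835 [0.675, 1.04]). No share over pairs of all genes was computed.

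Among well-counted genes the metallothioneins stood near the lower end. Of the 1830 genes with 1000 or more counts in sum, 2 had a ratio below that of Mt2 and 14 a ratio below that of Mt1, while 81 lay below Slc39a14. The median log2 ratio of these 1830 genes was 0.158, and 18.9% had an interval below 1 and 54.1% one above. Under the scaling used, well-counted genes as a whole thus leaned towards higher values with AZD7986. By the call used here, 4 of them (0.219%) were lower. Besides Mt2 they are Spp1 and Lcn2, for osteopontin and lipocalin 2, and Serpina3n, an acute phase protease inhibitor with 6420 and 2529 counts and a ratio of 0.475 [0.454, 0.498] (named after its value was seen). Closest in ratio to the mean of Mt1 and Mt2 among protein-coding genes of this depth were Cp (0.523 [0.506, 0.540]), Tgm2 (0.512 [0.460, 0.569]), Vim (0.511 [0.450, 0.580]), Fn1 (0.530 [0.507, 0.554]) and Abhd2 (0.546 [0.486, 0.613]). Cp encodes the plasma copper protein ceruloplasmin, Tgm2 a transglutaminase, Vim the filament protein vimentin and Fn1 fibronectin. With 2 libraries, likeness means only a similar ratio.

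**Figure D2:**
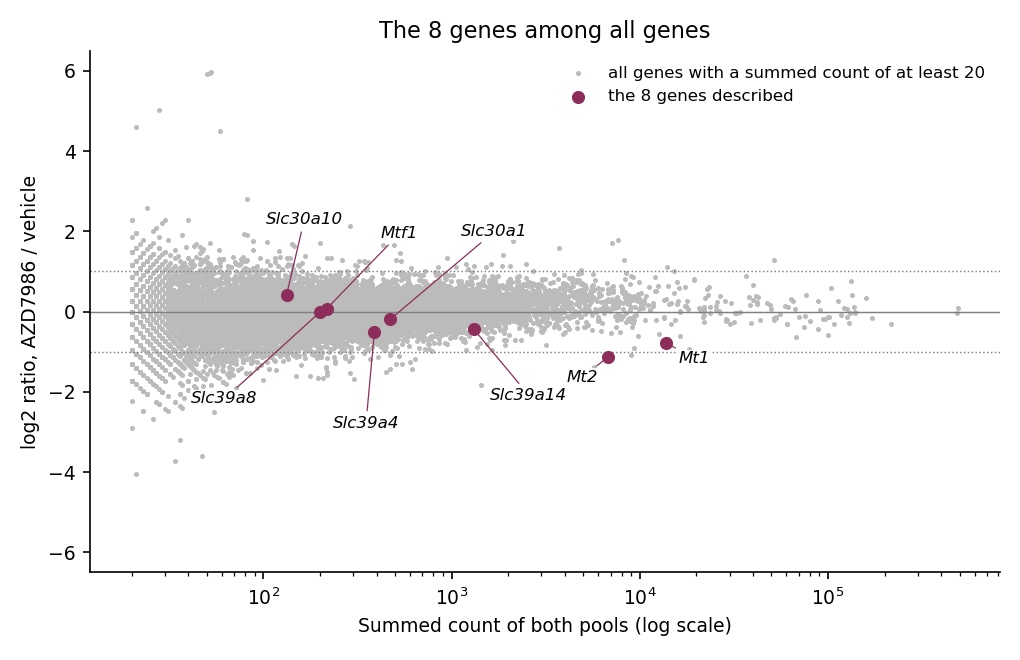
Log2 ratio against summed count (log axis) for the 13523 genes with 20 or more counts in sum (grey) and the 8 genes described (purple), with dotted lines at 2-fold in either direction. Mt1 and Mt2 lie at the lower edge of the cloud for their depth, and Mtf1 and Slc39a8 lie near 0. Slc39a14 and Slc39a4 lie in the lower part of the cloud. Of genes with 1000 or more counts in sum, 4.43% had a ratio below that of Slc39a14. Of genes with 100 or more, 8.92% had a ratio below that of Slc39a4.

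The other zinc transporters placed these values in their families. Of the ZIP family, 13 of 14 symbols were in the table and 12 had a summed count of at least 20. Of these 12, 0 were called lower or higher, beside 2.88% and 1.83% of all 13523 genes at that depth. In 3 the interval lay below 1 and in 0 above, beside 15.1% and 17.9% of all genes. The third beside Slc39a4 and Slc39a14 was Slc39a6, with 44 and 19 counts and a ratio of 0.521 [0.287, 0.911]. Slc39a1, a zinc importer of the plasma membrane and the most counted ZIP gene, had 1143 and 974 counts and a ratio of 1.03 [0.943, 1.12]. Next among the other ZIP genes came Slc39a9, a Golgi transporter (203 and 147 counts, 0.874 [0.702, 1.09]), and Slc39a11 (154 and 151 counts, 1.18 [0.939, 1.49]). Summed over the family, ZIP counts gave a ratio of 0.903 [0.854, 0.954]. Slc39a14 supplied 27.7% of them with vehicle and 22.7% with AZD7986, with intervals that do not overlap, and Slc39a1 39.0% [37.2, 40.8] and 44.4% [42.3, 46.5]. The 9 ZIP genes with enough counts outside the 8 described had a median log2 ratio of −0.05, beside −0.017 over all those genes.

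All 10 ZnT symbols were in the table, 7 of them with 20 or more counts in sum. Of these 7, 0 were called, and 2 had an interval below 1 (15.1% of all genes), Slc30a4 (148 and 85 counts, 0.693 [0.524, 0.911]) and Slc30a7 (147 and 80 counts, 0.657 [0.494, 0.868]), which load zinc into vesicles and the early secretory pathway. Slc30a9, the most counted member, had 343 and 302 counts and a ratio of 1.06 [0.907, 1.24], and Slc30a5, a partner in zinc supply to secreted enzymes, had 235 and 194 (0.996 [0.820, 1.21]). The ZnT sum had a ratio of 0.925, with an interval from 0.852 to about 1, and the 5 genes outside the 8 described had a median of −0.09. The islet transporter Slc30a8 had 1 count in each pool. Slc30a2 had 1 count in the vehicle pool and 0 of 6700838 in the other.

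**Figure D3:**
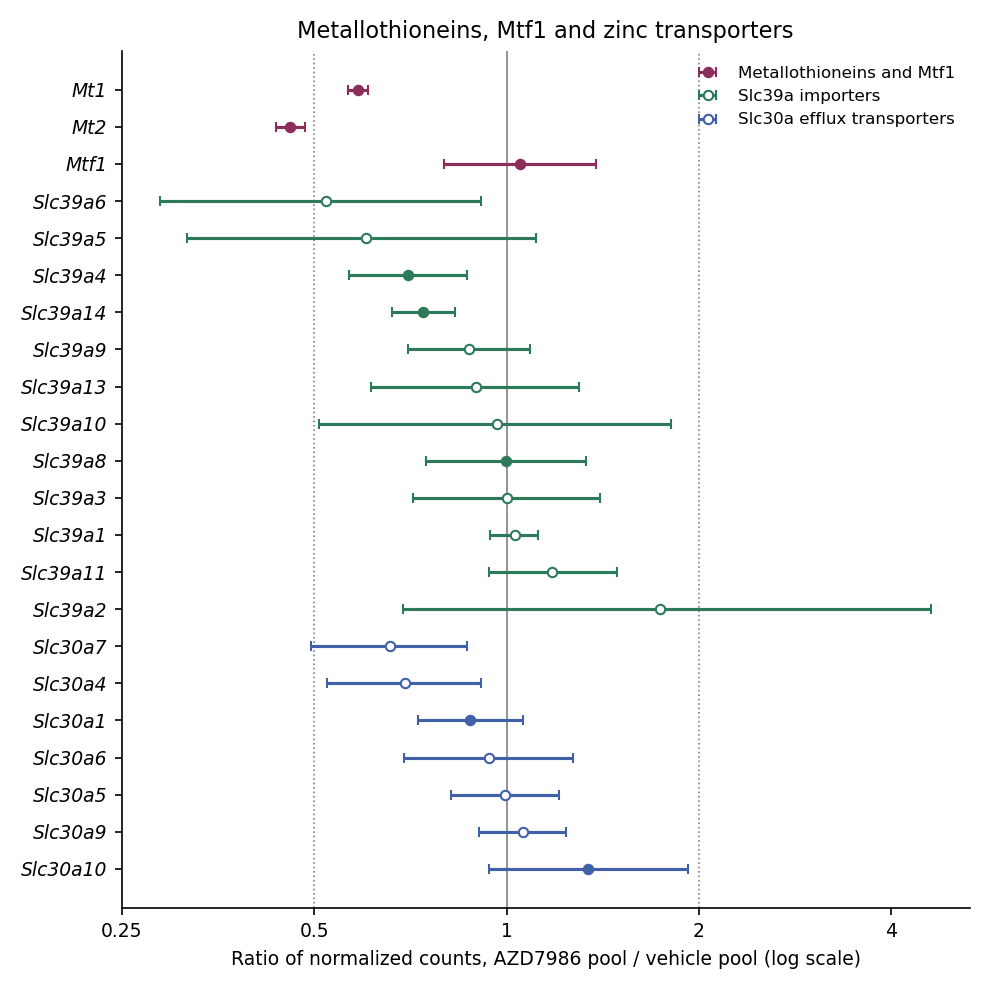
Ratio of normalized counts, AZD7986 pool over vehicle pool (log axis), with exact 95% counting intervals, for the metallothioneins and Mtf1 (purple) and for ZIP (green) and ZnT (blue) genes with 20 or more counts in sum. Filled points are the 8 genes described, open points other family members, and dotted lines mark 0.5 and 2. Mt2 alone lies left of 0.5 with its whole interval, and Slc39a4, Slc39a6, Slc39a14, Slc30a4 and Slc30a7 are the transporters with intervals below 1.

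Genes reported to respond to regulators of the metallothioneins gave mixed values. The counts of each list are set beside the shares of all 13523 genes with 20 or more counts in sum. Of the 5 measured genes reported to respond to Mtf1, 2 had an interval below 1 (15.1% of all genes) and 0 were called, with a median log2 ratio of −0.11. They are Gclc, for the catalytic subunit of glutathione synthesis (1209 and 697 counts, 0.696 [0.633, 0.764]), and Ndrg1, a stress-responsive gene (138 and 76 counts, 0.665 [0.496, 0.886]). Selenow, for a small selenoprotein, had 342 and 290 counts (1.02 [0.872, 1.20]), and Csrp1, for a cytoskeletal LIM protein, had 344 and 264 (0.926 [0.786, 1.09]). The remaining gene, the ZIP transporter Slc39a10, had 25 and 20 counts (0.966 [0.509, 1.81]). The list does not separate genes that Mtf1 raises from genes that it lowers, so its median mixes possible directions.

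Of 10 glucocorticoid-responsive genes, 6 had an interval below 1 (15.1% of all genes), 0 one above (17.9%), and 0 were called, with a median of −0.22. Of the 4 with 1000 or more counts, 3 had an interval below 1, beside 18.9% of all genes that deep. Sgk1, a kinase of salt and stress responses, had 299 and 145 counts, a ratio of 0.585 [0.477, 0.716], close to that of Mt1. Pck1, for the gluconeogenic enzyme, had 8087 and 4530 counts (0.676 [0.652, 0.701]). Cdkn1a, a cell cycle inhibitor, had 226 and 128 (0.684 [0.546, 0.853]). Tat, a tyrosine-degrading enzyme, had 7089 and 5109 (0.870 [0.839, 0.902]). Tsc22d3, for the leucine zipper protein GILZ, had 1062 and 881 counts, a log2 ratio of 0.00 with a ratio interval of 0.915 to 1.10.

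Of 14 genes responsive to interleukin 6 and STAT3, 2 were called lower (2.88% of all genes), 8 had an interval below 1 (15.1%) and 4 one above (17.9%), with a median of −0.16. Most of the list is well counted, and of its 12 genes with 1000 or more counts 1 was called lower, 7 had an interval below 1 and 4 one above, beside 0.219%, 18.9% and 54.1% of all genes that deep. Called lower were Socs3, the feedback inhibitor of that pathway (90 and 27 counts, 0.362 [0.226, 0.562]), and Lcn2. The most counted members lay nearer 1, Hpx at 0.917 [0.907, 0.927], Hp at 0.935 [0.924, 0.946] and Fgb at 0.745 [0.735, 0.756], while those with an interval above 1 were Saa1, Saa2, Orm1 and Orm2, for serum amyloid A and orosomucoid (named after their values were seen), led by Saa1 (36219 and 39804 counts, 1.33 [1.31, 1.35]). Of 9 NRF2 target genes, 4 had an interval below 1 (15.1% of all genes), 1 above (17.9%), and 0 were called, with a median of −0.14. Gclc belongs to this list as well. Gclm, the other glutathione synthesis subunit, had 1423 and 957 counts (0.812 [0.747, 0.882]), Srxn1, for sulfiredoxin, 1127 and 1033 (1.11 [1.02, 1.20]), and Hmox1, for heme oxygenase, 300 and 165 (0.664 [0.546, 0.805]). G6pdx, which supplies NADPH, had 93 and 52 counts (0.675 [0.471, 0.958]).

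**Figure D4:**
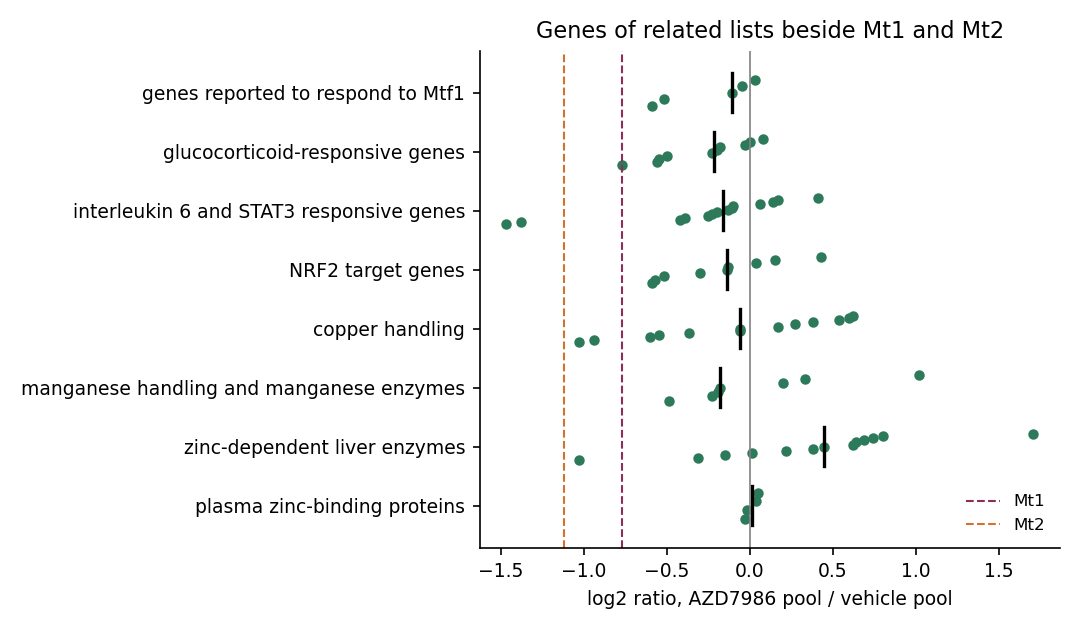
Log2 ratio of each gene with 20 or more counts in sum in lists related to metal handling and to inducers of metallothioneins, with a black bar at each list's median and dashed lines at Mt1 (−0.77) and Mt2 (−1.12). List medians run from −0.22 for glucocorticoid-responsive genes to 0.45 for zinc-dependent enzymes, all to the right of both metallothioneins, and single genes such as Socs3 (−1.47) and Lcn2 (−1.38) lie further left.

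Markers of other cells also differed between the pools. Neutrophil markers, 10 of 11 symbols in the table, summed to 132 CPM with vehicle and 47.6 CPM with AZD7986, with 5 of 7 genes of 20 or more counts called lower, beside 2.88% of all genes; Ly6g was at 0 in the first pool and Elane in the second. Cholangiocyte markers summed to 187 and 55.1 CPM, mostly from Spp1, with 3 of 5 called lower, beside the same 2.88%, and Cftr at 0 in the AZD7986 pool. Monocyte and macrophage markers summed to 399 and 294 CPM, and stellate cell markers to 381 and 280 CPM. In both, 0 were called, beside 2.88% of all genes lower and 1.83% higher. Intervals lay below 1 in 4 of 9 and in 5 of 8 of these genes (15.1% of all genes), and above 1 in 0 (17.9%). Sinusoidal endothelial markers summed to 211 and 179 CPM, also with 0 called. Of these 8 genes, 4 had an interval below 1 and 1 above, beside the same 15.1% and 17.9%. Kupffer cell markers summed to 406 and 383 CPM, and hepatocyte markers to 67502 and 67630 CPM. Markers of pericentral hepatocytes, the cells that APAP kills, stood at 612 and 1155 CPM, with 4 of 6 called higher, beside 1.83% of all genes, and those of periportal hepatocytes at 3863 and 4305 CPM. Cyp2e1 supplied most of the pericentral sum (2730 and 5483 counts), and the second most counted marker, Cyp1a2, had 1231 and 912 counts (0.894 [0.820, 0.975]). Pancreatic acinar markers had 4 counts with vehicle and 139 with AZD7986, with Cpa1, Ctrb1 and Zg16 at 0 in the former. T and NK cell markers summed to 6.66 and 6.42 CPM, B and plasma cell markers to 3.00 and 4.18 CPM, and erythroid genes to 1546 and 1485 CPM. The part of these differences in the values of the metallothioneins and transporters was not tested.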

How the data were processed

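Liver RNA of 2 pools was sequenced at transcript 3′ ends (MACE). The authors removed duplicate reads by molecular identifiers, trimmed with cutadapt, clipped poly(A) tails, mapped to mm10 and deposited whole-number counts per gene from HTSeq. HTSeq and mm10 also stand in the submitters' processing notes. Aligner, annotation release, strand setting and tool versions were not given in the sources used here. Such counts weigh each transcript by its captured 3′ ends, so unannotated ends or shared sequence would change a gene's level. Titles assigned the samples to groups, since the treatment text of both is the same. The kit is Rapid MACE-Seq in the study's methods and MACE-kit v.2 in the labels. Doses come from the labels, and the number of mice, age and fasting from the study's methods. Of the table, only the raw counts were used. Its 6 per-sample columns that match no label and the authors' 4 scaled columns were left out. Rows without a symbol hold 3.70% and 3.71% of counts and were kept.

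Size factors came from DESeq2 1.42.0 (R 4.3.3). Ratios have exact binomial intervals, conditional on the gene's total. These, the Poisson and Clopper-Pearson intervals, and the conditional intervals for pairs of genes were computed in Python 3.11.15 with scipy 1.17.1 and pandas 2.3.3. The size factors and the ratio intervals were tested on simulated data, and the other intervals were not. A count of 0 was set to 1 for ratios. List medians use members with 20 or more counts in sum. Alternatives were scaling by TMM (edgeR 4.0.16), by library total with or without mitochondrial transcripts, from genes with 20 or more counts in sum, or none, an added 0.5, a stricter interval and other minimum counts. The 8 genes and all lists were chosen with earlier results of these data known. Named are the 8 genes, in each list the 3 most counted and the 3 with the largest difference whose interval excludes 1, and the 5 genes nearest in ratio to the metallothioneins. Gene coordinates are from GENCODE M21, which holds 23210 of the 24377 identifiers. Coding sequences were cut from its transcripts.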

Additional observations from a re-analysis of the deposited data

How the results depend on the processing

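With 1 library per pool no replicate could be left out, and no paired analysis was possible because each group has a single sample. Under TMM, library total, library total without mitochondrial transcripts, size factors from genes with 20 or more counts in sum, an added 0.5, a stricter interval and a minimum summed count of 20, 1 member was called lower and 0 higher. Without scaling 2 were called lower, as the ratio of Mt1 became 0.486 and that of Mt2 0.381. Raw counts shift the log2 ratio of every gene by −0.27, and the share of all genes called lower without scaling is not given here. Without a minimum fold 4 were called lower, beside 18.0% of all genes with 100 or more counts in sum. Of 48 member ratios under other settings, 40 stayed within their counting interval and 8 moved beyond it, with 0 changing side of 1 among those whose interval excluded it. Library totals gave 0.555 for Mt1 and 0.435 for Mt2. They shift every log2 ratio by −0.079, and totals without mitochondrial transcripts by −0.10. Under both, the lean of genes with 1000 or more counts (median 0.158 in the main scaling) is smaller. With raw counts their median falls below 0. Scaling by library total without mitochondrial transcripts put the interval of Slc30a1 below 1 (0.817 [0.677, 0.984]), and raw counts did so too (0.726 [0.602, 0.875]). Under library totals Mtf1 came to 0.995 and Slc39a8 to 0.945, both with intervals that include 1. With Mt3 and Mt4 in the denominator, the share of Mt1 was 65.1% with vehicle and 70.3% with AZD7986. Of 32 list medians under other settings, 29 moved by at most 0.1. With Mt4 included the median of the other metallothioneins was −0.02. The median of Mtf1-responsive genes went from −0.11 to −0.32 among members with 100 or more counts in sum, which leaves out Slc39a10. That of zinc-dependent enzymes went from 0.45 to 0.63. For Mtf1, Slc39a8 and Slc30a10, with summed counts of 217, 201 and 133, depth limits what could be seen, as their intervals reach from 0.797 to 1.38, 0.748 to 1.33 and 0.940 to 1.92.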

Other observations

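Of 13 zinc-dependent enzymes of the liver, 9 had an interval above 1 and 1 below, beside 17.9% and 15.1% of all genes with 20 or more counts in sum. Called higher was 1 and lower 1, beside 1.83% and 2.88%, and the median log2 ratio was 0.45, beside −0.017. Well-counted genes in general leaned the same way: the 6 enzymes with 1000 or more counts all had an interval above 1, as did 54.1% of all genes that deep, and their median was 0.68, beside 0.158. Car3, a carbonic anhydrase of hepatocytes, had 1926 counts with vehicle and 5215 with AZD7986, a ratio of 3.27 [3.10, 3.44]. Bhmt, which remethylates homocysteine, had 3404 and 4913 counts (1.74 [1.67, 1.82]). The most counted, Adh1, an alcohol dehydrogenase, had 7436 and 7177 counts (1.16 [1.13, 1.20]), and Sord, for sorbitol dehydrogenase, 4916 and 6257 (1.54 [1.48, 1.59]). The gene called lower was Ada, for adenosine deaminase, with 32 and 13 counts (0.490 [0.236, 0.960]). Pericentral hepatocyte markers summed to 612 CPM with vehicle and 1155 CPM with AZD7986, mostly from Cyp2e1, while Cyp1a2 had a ratio of 0.894 [0.820, 0.975]. Their part in the values of the enzymes was not tested.

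Copper genes split in both directions. Of 13 measured, 5 had an interval above 1 and 4 below, beside 17.9% and 15.1% of all genes, 1 was called lower, beside 2.88%, and the median was −0.06. Of the 7 with 1000 or more counts, 4 had an interval above 1 and 2 below, beside 54.1% and 18.9%. Cp, for ceruloplasmin, had 12678 counts with vehicle and 5491 with AZD7986 (0.523 [0.506, 0.540]). The copper-zinc superoxide dismutase Sod1 had 10310 and 13131 counts, a ratio of 1.54. The other genes with an interval above 1 (named after their values were seen) were its copper chaperone Ccs (753 and 907 counts), Commd1, a factor in copper export (435 and 548 counts), the copper importer Slc31a1 (1054 and 1139 counts) and Cox17, a chaperone for cytochrome oxidase (1037 and 969 counts). The chaperone Atox1 had 2454 and 1948 (0.958 [0.902, 1.02]), and Atp7a, a copper pump scarce in adult liver, had 37 and 15 (0.489 [0.249, 0.913]). Also below 1 were Steap4, a metalloreductase (798 and 436 counts, 0.659 [0.585, 0.742]), and Atp7b, the copper pump of hepatocytes (122 and 69 counts, 0.683 [0.501, 0.924]), both named after their values were seen. Of 7 genes of manganese handling and manganese enzymes, 3 had an interval above 1 and 1 below, beside 17.9% and 15.1% of all genes, with a median of −0.18. Of these 3, Arg1 and Sod2 lie at 1000 or more counts, where 54.1% of all genes had such an interval. Glul, for glutamine synthetase, was called higher, beside 1.83% of all genes (270 and 453 counts, 2.02 [1.74, 2.36]) and also stands among the pericentral markers. Arg1, for arginase, had 10909 and 11351 counts (1.26 [1.22, 1.29]), Sod2, for the mitochondrial superoxide dismutase, 1430 and 1365 (1.15 [1.07, 1.24]), and the metal importer Slc11a2 had 169 and 100 counts (0.714 [0.552, 0.920]). The 4 plasma zinc-binding proteins had a median of 0.01, and Alb, the main zinc carrier of plasma, had a ratio of 0.984 [0.979, 0.990].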
